A study of Rattus norvegicus with 14 samples.

Results

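Proteins that regulate splicing and bind RNA were followed in hippocampus and heart of the rat through 8 gene families and a pair of single genes. Members were all probe sets whose only gene symbol in the platform annotation belonged to the Srsf, Hnrnp, Elavl, Rbfox, Nova, Celf, Ptbp or Mbnl families, or was Rbm20 or Rbm24. They comprised 103 probe sets of 48 genes, out of 31042 probe sets and 14217 genes in all. A probe set is a group of short oligonucleotides on the array that reads the same stretch of transcript, and 26 of the 48 genes were read by several of them. No single-symbol probe set was listed for Nova1 or Celf6, so that neither was analysed here.

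Alternative splicing joins different exons of the same gene into different messenger RNAs, and the choice depends on proteins that bind the precursor RNA near an exon. SR proteins (Srsf) and heterogeneous nuclear ribonucleoproteins (Hnrnp) are made in nearly all cells, and often act against each other on exon inclusion. Members of the Rbfox, Nova, neuronal Elavl, Celf and Ptbp families are known for exon choice and transcript stability in neurons, while Mbnl proteins, Rbm20 and Rbm24 are known for exon choice in heart and skeletal muscle.

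The samples were hippocampus and heart of Sprague-Dawley rats on Affymetrix arrays, which measure the amount of a transcript and not the exons it contains. Pups of 7 days gave 3 hippocampus and 3 heart samples, dissected in the laboratory, with the sex not stated. Males of 10 weeks gave 2 hippocampus and 2 heart samples, bought as purified RNA, each read on 2 technical arrays that were averaged. No group carried a treatment or an altered gene. Age, source and preparation of the RNA therefore cannot be told apart, and since the methods speak of the adult rat in the singular, p-values with adult samples may measure technical spread only. The sources used here do not say which pup gave which sample. In bulk tissue fewer cells of a type and less RNA per cell cannot be told apart.

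Values are log2 summaries per probe set, for which array medians lay between 9.33 and 9.52 and array maxima between 15.94 and 15.99. A difference of 1 on this scale is a doubling. Levels at or under the 10th percentile of an array, which lay between 7.09 and 7.26, were taken as not shown above background, and levels above 15 as compressed. Of the member probe sets, 3 lay under the 10th percentile in every group, 1 lay above 15 (Rbm20, 1391810_at), and 67 had a group mean above the highest array median. Levels of different probe sets were not compared. The labelled tissues carried their markers: 7 of 8 neuronal markers were higher in pup hippocampus and 6 of 8 in adult hippocampus, and all 7 measured cardiomyocyte markers were higher in heart at both ages. The mean level of the neuronal markers was 11.64 to 12.41 across hippocampus samples and 8.61 to 9.23 across heart samples, and that of the cardiomyocyte markers was 13.91 to 14.70 across heart samples and 9.08 to 10.38 across hippocampus samples.

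Promoter sequence is shown for Rbm24, Celf5 and Elavl2, which had the largest differences between the tissues in pups among the members with a promoter on file, the first of them higher in heart and the others in hippocampus. Each window is from RefSeq on build GRCr8, runs from 250 bases before the start of the gene to 50 bases from it on, and is written from 5′ to 3′ along the strand of the gene. Capitals mark matches to 4 motifs, each searched on both strands. The E box was searched as CANNTG and the GC box as GGGCGG. The CCAAT box was searched under the letters of its name, and the TATA box as TATAAA; none of the marked matches overlap.
Rbm24, chr17:18493579-18493878, minus strand: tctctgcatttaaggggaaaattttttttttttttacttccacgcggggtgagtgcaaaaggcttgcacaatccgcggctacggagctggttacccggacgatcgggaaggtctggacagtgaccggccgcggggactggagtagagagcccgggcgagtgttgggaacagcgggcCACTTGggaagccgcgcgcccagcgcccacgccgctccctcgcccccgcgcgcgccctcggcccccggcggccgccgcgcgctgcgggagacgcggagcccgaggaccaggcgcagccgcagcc
Celf5, chr7:8876335-8876634, plus strand: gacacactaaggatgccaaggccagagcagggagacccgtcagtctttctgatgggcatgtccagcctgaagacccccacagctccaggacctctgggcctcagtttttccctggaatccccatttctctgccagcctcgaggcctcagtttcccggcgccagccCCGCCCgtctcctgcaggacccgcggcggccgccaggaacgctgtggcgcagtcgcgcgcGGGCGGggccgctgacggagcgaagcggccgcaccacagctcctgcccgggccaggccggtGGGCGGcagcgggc
Elavl2, chr5:111202238-111202537, minus strand: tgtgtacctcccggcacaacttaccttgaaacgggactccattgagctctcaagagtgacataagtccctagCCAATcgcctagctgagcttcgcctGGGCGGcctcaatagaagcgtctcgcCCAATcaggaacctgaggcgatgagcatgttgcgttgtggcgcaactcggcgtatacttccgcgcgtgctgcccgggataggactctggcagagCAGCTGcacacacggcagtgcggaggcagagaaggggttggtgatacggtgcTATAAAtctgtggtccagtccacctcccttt
The Rbm24 window held 1 E box, beginning at position -74 from the start, and no other motif of the set. The Celf5 window held 3 GC boxes, and the Elavl2 window held 1 E box, 1 GC box, 2 CCAAT boxes and 1 TATA box. Windows were on file for 41 of the 48 genes, 46 windows in all, compared with 33469 windows over all genes. Their median content of G or C was 64.2%, compared with 51.7%, and their median number of CG pairs was 27.5, compared with 7. A GC box stood in 69.6% of the members' windows and 33.1% of all windows, and a CCAAT box in 63.0% and 37.5%. An E box stood in 60.9% and 72.1%, and a TATA box in 17.4% and 14.2%. These are matches of letters and say nothing of a factor bound there.

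The first question was which regulators differ between hippocampus and heart. In pups, 35 of the 103 member probe sets differed between the tissues (limma, Benjamini-Hochberg over all probe sets, adjusted p under 0.05), 22 of them higher in hippocampus and 13 higher in heart. That is 34.0% of the members, beside 24.1% of all probe sets. In adults 27 differed, 19 higher in hippocampus and 8 higher in heart, which is 26.2% beside 19.5% of all probe sets. By direction, 11.8% of all probe sets were higher and 12.3% lower in pup hippocampus, and 9.22% and 10.3% in adult hippocampus. Hippocampus and heart samples did not overlap for 49 members in pups and 70 in adults, beside 39.5% and 62.8% of all. Without hippocampus adult 2 the adult count fell to 9, or 8.74% of the members beside 9.26% of all, and without any other adult sample it was 15 to 18. Without hippocampus pup 1 or hippocampus pup 2 the pup count was 21 or 22, or 20.4% and 21.4% of the members beside 17.2% and 20.1% of all. The families split: of 53 probe sets in the families with tissue-restricted members, 23 (43.4%) differed in pups and 18 (34.0%) in adults, while of 50 Srsf and Hnrnp probe sets 12 (24%) and 9 (18%) did, shares close to the background. Read by the brightest probe set of each gene, 13 of 48 genes (27.1%) differed in pups, beside 25.4% of all genes, and 10 (20.8%) in adults, beside 20.1%. By gene, the members as a whole were thus close to the background. Of these genes 11 and 8 belonged to the 21 genes of the tissue-restricted families (52.4% and 38.1% of them). By gene the Srsf and Hnrnp families were under the background, with 2 of their 27 genes called at each age (7.41%).

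Rbfox proteins bind UGCAUG elements in introns. Rbfox3, whose product is the neuronal nuclear antigen NeuN, stood at 11.66, 11.63 and 12.25 in pup hippocampus and at 9.88, 9.53 and 9.98 in pup heart (1376460_at). In adults it stood at 11.48 and 11.73 in hippocampus and at 9.65 and 8.51 in heart. Every hippocampus sample lay above every heart sample. The difference was 2.05 ± 0.32 (SE) in pups, or 4.13-fold, with an adjusted p of 0.00153, and 2.52 ± 0.39 in adults, or 5.73-fold, with an adjusted p of 0.00214. The second Rbfox3 probe set, 1377095_at, was higher in hippocampus by 2.13 in pups and 1.65 in adults, the latter lost without hippocampus adult 2 (1.56, adjusted p 0.0726) or heart adult 1 (1.41, adjusted p 0.0787).

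Rbfox1, expressed in neurons as well as in heart and skeletal muscle, was read by 6 probe sets that did not move alike. The largest difference was that of 1383257_at, with 10.02, 10.19 and 10.37 in pup hippocampus and 7.54, 7.66 and 7.41 in pup heart. In adults the values were 9.76 and 9.91 in hippocampus and 7.92 and 8.35 in heart. Hippocampus was higher without overlap at both ages, by 2.66 ± 0.21 in pups (adjusted p 2.65e-05) and 1.70 ± 0.25 in adults (adjusted p 0.00174). By 1383130_at it stood at 11.53, 11.17 and 11.72 in pup hippocampus and 9.31, 10.41 and 9.90 in pup heart, and at 11.11 and 11.53 in adult hippocampus and 9.90 and 9.92 in adult heart. This probe set was higher in hippocampus by 1.60 ± 0.30 in pups (adjusted p 0.00404) and 1.41 ± 0.36 in adults (adjusted p 0.024), the adult call lost without any 1 adult sample (adjusted p 0.0574 to 0.149). The brightest, 1385235_at, was higher in pup hippocampus by 1.51 ± 0.29 (adjusted p 0.00445), with an adult difference of 0.60 that missed the threshold (adjusted p 0.276). In contrast, 1378371_at was lower in pup hippocampus (-1.04 ± 0.30), where it stood at 10.01 to 10.37 beside 10.62 to 11.78 in pup heart (adjusted p 0.0319). Its adult difference was -0.75 (adjusted p 0.197). The pup call of 1378371_at was lost without any 1 of hippocampus pups 1 to 3, heart pup 1 or heart pup 2 (-0.77 to -1.13, adjusted p 0.0554 to 0.102). The remaining 2 Rbfox1 probe sets missed the threshold at both ages, 1390594_at with 0.32 in pups and 0.56 in adults and 1380516_at with 1.02 in adults. Rbfox2, the broadly expressed member, stood at 13.95 to 14.27 in pup hippocampus and 13.04 to 13.85 in pup heart, a difference of 0.77 (95% interval 0.14 to 1.40, adjusted p 0.0743), and its dimmer probe set 1375545_at differed by -0.05. In adults it stood at 13.45 and 13.22 in hippocampus and 13.81 and 13.18 in heart, a difference of -0.16 (95% interval -0.93 to 0.61).

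Elavl2 and Elavl4 (HuB and HuD) stabilise AU-rich transcripts in neurons. Elavl4 stood at 10.25, 10.32 and 10.59 in pup hippocampus and 8.60, 8.12 and 8.54 in pup heart, and at 10.38 and 10.08 in adult hippocampus and 8.34 and 7.59 in adult heart. Hippocampus was higher by 1.97 ± 0.26 in pups (3.91-fold, adjusted p 0.000547) and 2.27 ± 0.31 in adults (4.83-fold, adjusted p 0.00122), without overlap. Elavl2 by its brightest probe set (1383736_at) stood at 10.84, 10.80 and 10.92 in pup hippocampus and 7.74, 7.79 and 8.08 in pup heart. In adults it stood at 10.91 and 11.04 in hippocampus and 8.95 and 8.0 in heart. The difference was 2.98 ± 0.26 in pups (7.91-fold, adjusted p 4.83e-05) and 2.50 ± 0.31 in adults (5.65-fold, adjusted p 0.000753). A second Elavl2 probe set, 1383768_at, was also higher in hippocampus, by 1.31 and 2.27, but its heart levels were at or under the 10th percentile, so that the size of the difference is not known. The third, 1381677_at, went the other way, with 7.39 to 8.08 in pup hippocampus and 8.47 to 9.40 in pup heart, a difference of -1.14 ± 0.31 (adjusted p 0.0244), and of -1.34 ± 0.38 in adults (adjusted p 0.0341). The adult call of 1381677_at was lost without any 1 adult sample (adjusted p 0.067 to 0.174), and its pup call without hippocampus pup 1, heart pup 1 or heart pup 2 (adjusted p 0.0702 to 0.0897).

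Elavl1 (HuR), the member of the family made in most tissues, was higher in heart. It stood at 10.33, 9.40 and 9.65 in pup hippocampus and 10.74, 11.60 and 11.51 in pup heart, and at 9.93 and 10.27 in adult hippocampus and 11.17 and 11.72 in adult heart. The difference was -1.49 ± 0.33 in pups (adjusted p 0.00949) and -1.34 ± 0.40 in adults (adjusted p 0.0434). The adult call was lost without any 1 adult sample, hippocampus pup 3 or heart pup 2, with adjusted p between 0.0524 and 0.21. The other 2 Elavl1 probe sets missed the threshold at both ages, with -0.19 and -0.39 in pups and -1.12 and -0.34 in adults. Elavl3 (HuC) missed the threshold by both probe sets, with 0.99 in pups (95% interval -0.02 to 2.00) and 0.45 in adults by the brightest, 1382169_x_at, whose name marks probes shared with other sequences. By that probe set its group means were 13.49 and 12.50 in pup hippocampus and heart and 12.68 and 12.24 in adult hippocampus and heart. The other Elavl3 probe set, 1382168_at, differed by 0.84 in pups and 1.28 in adults. In adults it stood at 11.64 and 12.09 in hippocampus and 10.86 and 10.30 in heart.

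Among the Celf proteins, which bind GU-rich elements, Celf5 and Celf4 had the largest tissue differences of all members in pups. Celf5 stood at 13.08, 13.41 and 14.42 in pup hippocampus and 9.60, 9.44 and 9.89 in pup heart. In adults it stood at 12.70 and 13.42 in hippocampus and 11.22 and 10.15 in heart. The difference of 3.99 ± 0.40 in pups was 15.9-fold (adjusted p 0.000118), and that of 2.37 ± 0.49 in adults was 5.18-fold (adjusted p 0.0092). The adult call was lost without hippocampus adult 2 (2.01, adjusted p 0.0774) or heart adult 2 (1.84, adjusted p 0.0688). Celf4 stood at 13.45, 12.73 and 13.32 in pup hippocampus and 9.51, 9.10 and 9.29 in pup heart, and at 11.94 and 12.50 in adult hippocampus and 10.35 and 9.43 in adult heart. Its difference was 3.87 ± 0.31 in pups (14.6-fold, adjusted p 3.11e-05) and 2.33 ± 0.38 in adults (5.04-fold, adjusted p 0.00269). Hippocampus and heart did not overlap for either gene. In adult heart both were higher in sample 1 than in sample 2. Of the 19 member probe sets called higher in adult hippocampus, 10 were so and 9 were lower in sample 1, and the mean of the neuronal markers was 9.14 in sample 1 and 8.61 in sample 2. The part of the markers' cells in these values was not tested.

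Celf1 and Celf2 are made in many tissues. Celf1 was higher in hippocampus by 2 of its 5 probe sets at both ages. By the first of these, 1393029_at, it stood at 12.38, 12.06 and 12.92 in pup hippocampus and 9.93, 9.65 and 10.17 in pup heart, and at 11.29 and 11.62 in adult hippocampus and 9.09 and 9.21 in adult heart. The difference was 2.54 ± 0.26 in pups (adjusted p 0.000137) and 2.30 ± 0.32 in adults (adjusted p 0.00128), without overlap. By the brightest, 1388704_at, the difference was 0.85 ± 0.20 in pups (adjusted p 0.0145) and 0.81 ± 0.25 in adults (adjusted p 0.0493), and the adult call was lost in each of 10 fits that left out 1 sample (0.58 to 1.04, adjusted p 0.0512 to 0.255). The other 3 probe sets of Celf1 missed the threshold at both ages, with -0.21, -0.60 and -0.56 in pups and 0.63, 0.65 and -0.26 in adults. Celf2 stood at 13.01 to 13.64 in pup hippocampus, 11.84 to 12.38 in pup heart, 12.52 in both adult hippocampus samples, and 12.39 and 10.84 in adult heart by its brightest probe set, 1389867_at. It was higher in pup hippocampus by 2 of 4 probe sets (1.19 by 1389867_at and 2.12 by 1387880_at) and in adults by the second of them (1.95), while the other 2 missed the threshold (0.65 and -0.52 in pups, -0.03 and 0.02 in adults). The pup call of 1389867_at was lost in all but 2 of the fits without 1 sample (adjusted p 0.0522 to 0.132), and the adult call of 1387880_at without hippocampus adult 1, hippocampus adult 2 or heart adult 2 (adjusted p 0.0611 to 0.0916). Celf3, made mainly in neurons, stood at 10.34 to 10.62 in pup hippocampus and 9.51 to 10.16 in pup heart, a difference of 0.63 that missed the threshold (95% interval 0.13 to 1.12, adjusted p 0.0692), and its adult means of 10.63 and 10.12 differed by 0.51 (adjusted p 0.238).

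**Figure D1:**
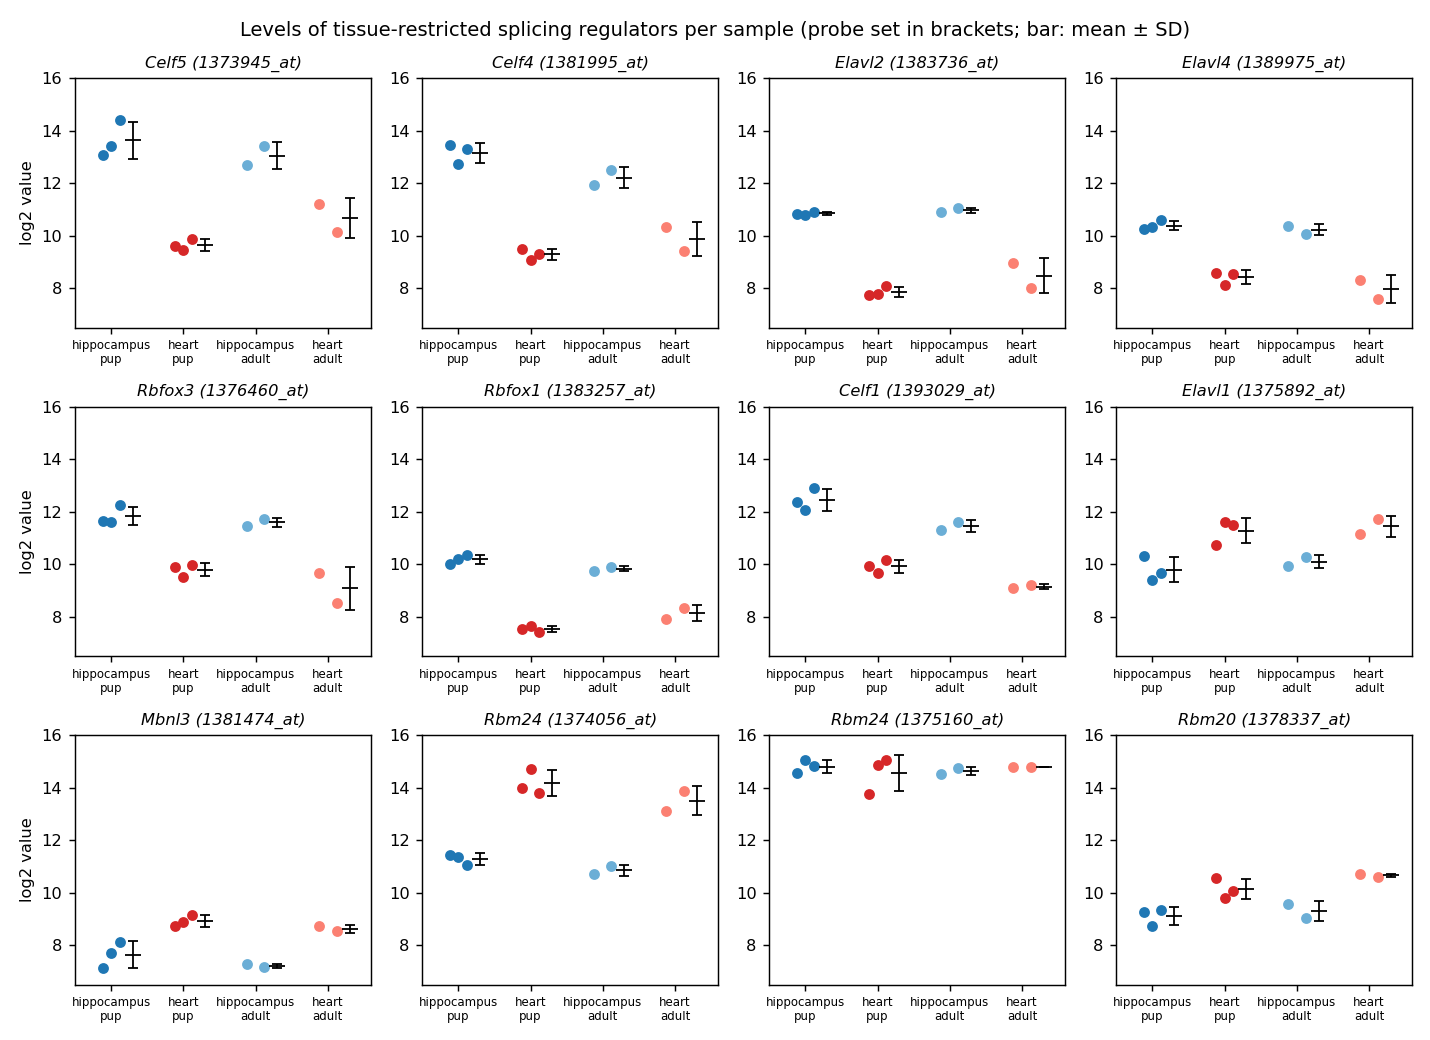
Log2 level (vertical axis) of 12 member probe sets in each sample of the 4 groups, with the group mean and SD drawn beside the points. Celf5, Celf4, Elavl2 (1383736_at), Elavl4, Rbfox3 (1376460_at), Rbfox1 (1383257_at) and Celf1 (1393029_at) were higher in hippocampus at both ages. Elavl1 (1375892_at), Mbnl3, Rbm20 (1378337_at) and Rbm24 (1374056_at) were higher in heart, and Rbm24 by 1375160_at lay between 13.76 and 15.06 in all samples. Other probe sets of Elavl2, Rbfox1, Celf1 and Elavl1, not drawn here, did not all differ in this way.

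Ptbp1 is a repressor of neuronal exons outside neurons, and Ptbp2 takes its place in developing neurons. Neither differed between these tissues past the threshold. Ptbp1 stood at 9.25 to 10.14 in pup hippocampus and 9.92 to 10.30 in pup heart, a difference of -0.36 (95% interval -0.93 to 0.20), and its adult difference, from 9.31 and 9.25 in hippocampus and 9.69 and 9.86 in heart, was -0.49 (95% interval -1.18 to 0.20). Ptbp2 stood at 9.38 to 9.53 in pup hippocampus and 9.53 to 9.64 in pup heart, a difference of -0.14 (95% interval -0.73 to 0.46), and its adult difference, from 10.58 and 9.56 in hippocampus and 10.09 and 10.43 in heart, was -0.19 (95% interval -0.92 to 0.54). Ptbp3, best known from blood cells, had group means between 11.82 and 12.13 by its brightest probe set, with a pup difference of -0.02, and was higher in pup heart by 1387432_at (-1.06 ± 0.28, adjusted p 0.0205), from 6.96 to 7.47 in hippocampus, close to background, and 8.11 to 8.43 in heart. This call was lost without hippocampus pup 1, hippocampus pup 2, heart pup 2 or heart pup 3 (adjusted p 0.0534 to 0.0762). Nova2, a neuronal regulator that binds YCAY elements, stood at 7.85 to 7.95 in pup hippocampus and 7.83 to 8.33 in pup heart, and its difference was -0.17 in pups (95% interval -0.66 to 0.32) and -0.70 in adults, where it stood at 7.68 and 7.70 in hippocampus and 8.13 and 8.65 in heart (95% interval -1.30 to -0.10, adjusted p 0.0992). Its other probe set lay under the 10th percentile in every sample.

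The regulators known from muscle came next. Rbm24, an RNA-binding protein needed for sarcomere assembly in the heart, had 4 probe sets. By 1374056_at it stood at 11.44, 11.38 and 11.05 in pup hippocampus and 13.98, 14.73 and 13.82 in pup heart, and at 10.71 and 11.01 in adult hippocampus and 13.11 and 13.90 in adult heart. Heart was higher without overlap, the difference being -2.89 ± 0.30 in pups (7.4-fold, adjusted p 0.000154) and -2.65 ± 0.37 in adults (6.26-fold, adjusted p 0.00133), the largest difference toward heart of any member at either age. The brightest probe set, 1375160_at, lay between 13.76 and 15.06 in all 10 samples, near the top of the scale, and missed the threshold (0.25 in pups, 95% interval -0.48 to 0.98). The other 2 missed it too, with -0.81 (adjusted p 0.101) and -0.05 in pups and -0.32 and -0.35 in adults.

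Rbm20, the regulator of titin splicing, showed the same split. Its brightest probe set, 1391810_at, lay between 15.02 and 15.53 in all samples, in the compressed range, and differed by -0.01 in pups (95% interval -0.43 to 0.41). By 1378337_at it stood at 9.25, 8.72 and 9.35 in pup hippocampus and 10.57, 9.79 and 10.06 in pup heart, and at 9.57 and 9.03 in adult hippocampus and 10.70 and 10.62 in adult heart. Heart was higher without overlap, the difference being -1.03 ± 0.28 in pups (adjusted p 0.0237) and -1.36 ± 0.34 in adults (adjusted p 0.0214). These calls were lost without hippocampus pup 1, hippocampus pup 2 or heart pup 1 in pups (adjusted p 0.0501 to 0.0781) and without hippocampus adult 2 or either adult heart sample in adults (adjusted p 0.0771 to 0.149).

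Mbnl proteins promote adult exon choice in muscle and brain. Mbnl3 stood at 7.13, 7.69 and 8.13 in pup hippocampus and 8.72, 8.90 and 9.14 in pup heart, and at 7.27 and 7.17 in adult hippocampus, close to the 10th percentile, and 8.74 and 8.53 in adult heart. Heart was higher, with a difference of -1.27 ± 0.27 in pups (adjusted p 0.00781) and -1.42 ± 0.33 in adults (adjusted p 0.0157), the adult call lost without any 1 adult sample (adjusted p 0.0507 to 0.0895). Mbnl1 by its brightest probe set stood at 10.29 to 10.48 in pup hippocampus and 11.05 to 11.55 in pup heart, a difference of -1.0 ± 0.26 (adjusted p 0.0215). Without hippocampus pup 2, hippocampus pup 3, heart pup 1 or heart pup 2 it missed the threshold (adjusted p 0.0558 to 0.0704), and its adult difference, from 10.20 and 10.37 in hippocampus and 10.64 and 11.53 in heart, was -0.80 (adjusted p 0.117). In adults a dim Mbnl1 probe set, 1380213_at, was higher in heart (-1.36), with hippocampus at 5.87 and 5.89, under the 10th percentile, so that the size of the difference is not known; it was lost without either adult hippocampus sample or heart adult 1 (adjusted p 0.0667 to 0.0914). Mbnl2 had means of 11.94 and 11.76 in pup hippocampus and heart and 10.94 and 11.10 in adult hippocampus and heart by its brightest probe set, with a pup difference of 0.18, and was higher in pup heart by 1375140_at (-0.71 ± 0.22, adjusted p 0.0421), a call lost in all but 2 of the fits without 1 sample (adjusted p 0.0555 to 0.124). The remaining probe sets of both genes were not called at either age, among them 1385933_at (-0.28 in pups) and 1382463_at (-0.78) of Mbnl1 and 1394931_at (-0.09 in pups) of Mbnl2. The uncalled 1375675_at of Mbnl2 pointed toward hippocampus in pups (0.91) and differed by 0.04 in adults. Fibroblast and endothelial markers were also higher in heart, with mean levels of 11.98 to 13.90 and 12.68 to 13.51 across heart samples and 9.75 to 11.38 and 10.98 to 11.95 across hippocampus samples. Their part in these differences was not tested.

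**Figure D2:**
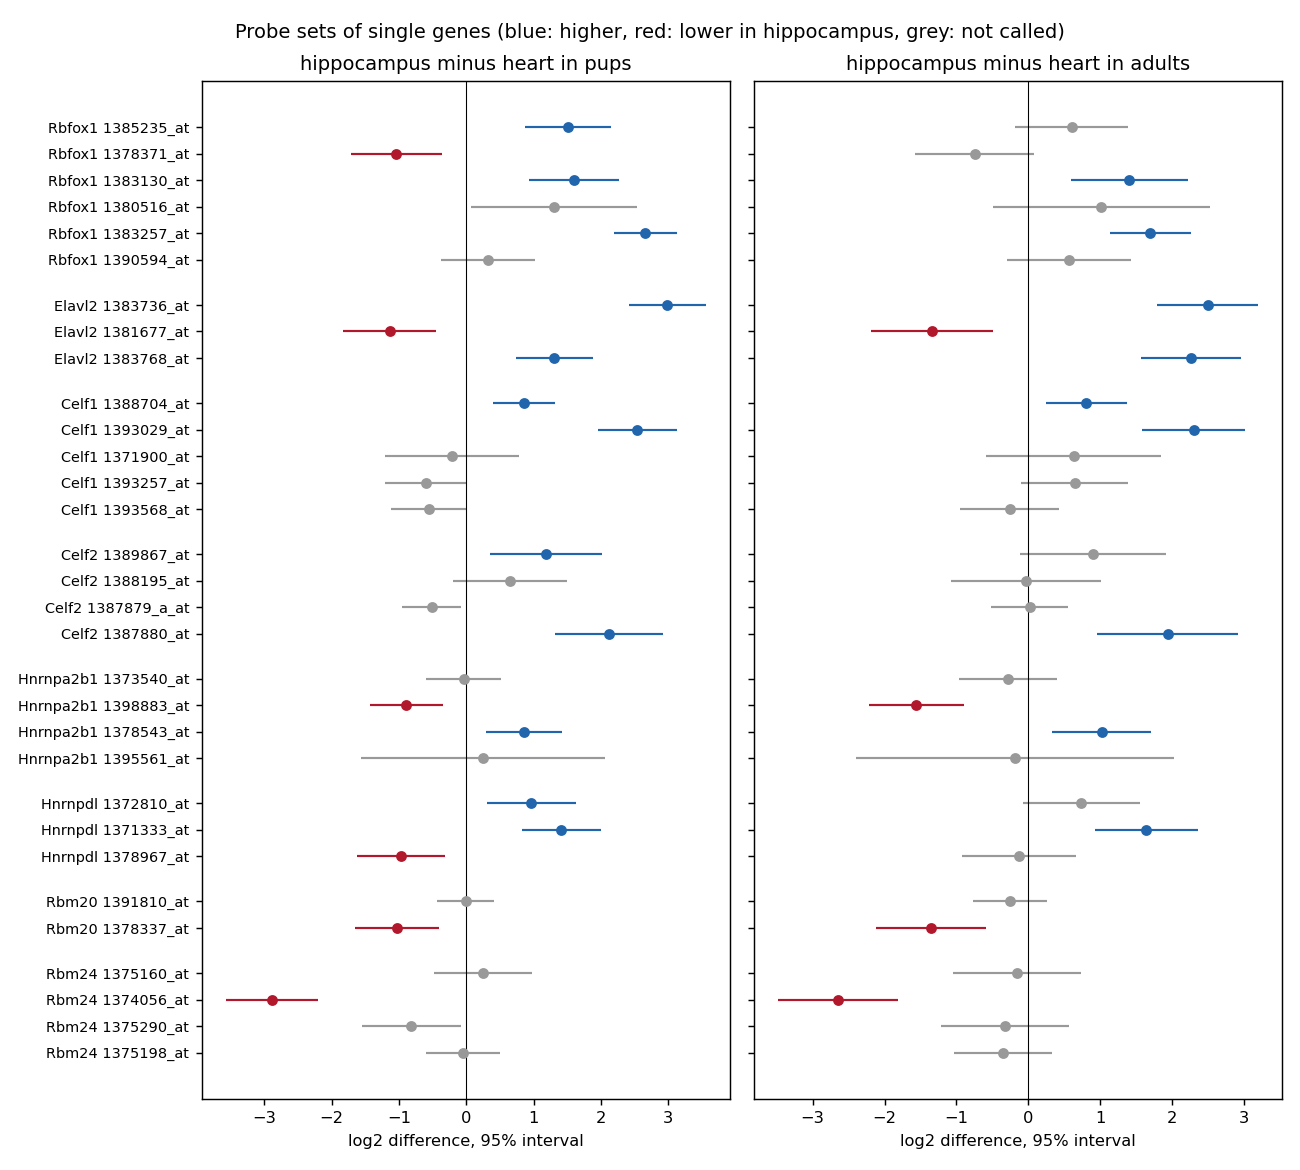
Difference hippocampus minus heart (log2, horizontal axis) with its 95% interval for every probe set of 8 genes, in pups and in adults; blue marks higher and red lower in hippocampus at an adjusted p under 0.05, and grey marks differences that missed it. Elavl2 and Hnrnpa2b1 have probe sets on both sides of 0 at both ages, and Rbm24 differs by 1374056_at and not by the others.

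Of 19 probe sets of the SR proteins, which bind exonic enhancers, 3 differed in pups (15.8%, beside 24.1% of all probe sets) and 2 in adults (10.5%, beside 19.5%). The median of their absolute differences was 0.30 in pups, compared with 0.51 over all probe sets, and 0.68 in adults, compared with 0.54. Srsf11 was higher in pup hippocampus, with 11.13, 11.20 and 11.01 beside 10.53, 10.51 and 10.43 in heart (0.63 ± 0.20, adjusted p 0.0475), a call kept in 2 of the 10 fits without 1 sample (adjusted p 0.064 to 0.117 in the others), and its second probe set missed the threshold (0.34). Srsf9 was higher in adult hippocampus, with 9.37 and 9.89 beside 8.50 and 8.67 (1.05 ± 0.25, adjusted p 0.0164), and this was lost without hippocampus adult 2 (0.79, adjusted p 0.132) or heart adult 1 (0.96, adjusted p 0.0893). Srsf6 was higher in heart by 2 of its 3 probe sets. By 1371999_at it stood at 8.96 to 9.19 in pup hippocampus and 9.96 to 10.64 in pup heart, a difference of -1.12 ± 0.24 (adjusted p 0.00913), and at both ages it was higher in heart by 1383466_at (-0.87 and -0.98). The pup call of 1383466_at was lost without any 1 pup hippocampus sample or heart pup 2 (adjusted p 0.0517 to 0.0668), and its adult call without any 1 adult sample, hippocampus pup 1 or hippocampus pup 3 (adjusted p 0.051 to 0.177). Its brightest probe set missed the threshold (-0.13 and -0.33). Srsf1, the archetype of the family, stood at 10.16 and 10.17 in adult hippocampus and 11.62 and 11.32 in adult heart, a difference of -1.31 just short of the threshold (adjusted p 0.051), and of -0.30 in pups.

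The Hnrnp family had 31 probe sets, of which 9 differed in pups (7 higher in hippocampus, 2 higher in heart) and 7 in adults (6 and 1), shares of 29.0% and 22.6% beside 24.1% and 19.5% of all probe sets. Read by the brightest probe set, 1 of 17 Hnrnp genes was called at each age (5.88%), beside 25.4% and 20.1% of all genes. Hnrnpdl, a paralogue of the AU-rich element binding protein Hnrnpd, was higher in hippocampus by 1371333_at, with 11.69, 11.25 and 11.72 in pup hippocampus and 9.82, 10.44 and 10.16 in pup heart (1.41 ± 0.26, adjusted p 0.00394) and a difference of 1.64 ± 0.32 in adults (adjusted p 0.00658). Its brightest probe set, 1372810_at, was higher in pup hippocampus (0.96), and another, 1378967_at, higher in pup heart (-0.97). These 2 calls were kept in 3 of the 10 fits without 1 sample each (adjusted p 0.0511 to 0.12 in the others), and the adult call of 1371333_at was lost without hippocampus adult 2 or heart adult 1 (adjusted p 0.054 to 0.0616). Hnrnpa3, which takes part in RNA transport, was higher in hippocampus by 2 of 5 probe sets at both ages, by 0.70 (1374405_at) and 0.78 (1370872_at) in pups and 1.37 and 1.32 in adults, while the brightest missed the threshold (-0.37 in pups and 0.60 in adults), as did the other 2 (0.30 and -0.02 in adults). In pups Hnrnpa3 by these last 2 had lower means in hippocampus than in heart, 11.84 and 12.13 by 1370871_at and 7.59 and 7.78 by 1394741_at. Its pup calls were lost in 4 to 7 of the fits without 1 sample (adjusted p 0.0523 to 0.0938), and the adult call of 1370872_at (1.32) was lost without hippocampus adult 2 (adjusted p 0.0698) or heart adult 1 (adjusted p 0.0595). Hnrnpa1, a splicing repressor, was higher in hippocampus by 1372693_at (1.41 in pups and 1.05 in adults), with -0.03 and -0.19 by its brightest and 0.45 in adults by the other, and its adult call was lost without any 1 adult sample (adjusted p 0.0847 to 0.136). Hnrnpu, a nuclear scaffold protein, was higher in pup hippocampus by 1370171_at, with 11.39, 11.66 and 12.04 beside 9.53, 10.18 and 10.17 (1.74 ± 0.27, adjusted p 0.00158), and differed by -0.71 (adjusted p 0.0715) by its brightest and by 0.22 in pups and 0.78 in adults by the other. Hnrnph1, which binds G-rich runs, was higher in adult hippocampus, with 11.76 and 11.72 beside 10.85 and 10.76 (0.94 ± 0.24, adjusted p 0.0228), a call lost without any 1 adult sample (adjusted p 0.0763 to 0.106).

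Hnrnpa2b1, which carries dendritic transcripts along neuronal processes, had called probe sets in opposite directions at both ages. By 1398883_at it stood at 9.21, 9.22 and 9.39 in pup hippocampus and 10.01, 10.29 and 10.20 in pup heart, and by 1378543_at at 10.18, 10.08 and 10.46 in pup hippocampus and 9.37, 9.72 and 9.05 in pup heart. The first differed by -0.90 in pups and -1.56 in adults, the second by 0.86 and 1.02. The brightest probe set lay between these, with -0.04 and -0.28, and the fourth, 1395561_at, missed the threshold too (0.25 in pups). In all, 4 genes had called probe sets in both directions in pups (Elavl2, Hnrnpa2b1, Hnrnpdl and Rbfox1) and 2 in adults (Elavl2 and Hnrnpa2b1). Where in each transcript a probe set lies was not analysed here, so that a difference between isoforms and a difference between probes cannot be told apart. Of these opposed calls, 1398883_at of Hnrnpa2b1 was lost without hippocampus adult 2 in adults (-1.16, adjusted p 0.0513) and without hippocampus pup 1, hippocampus pup 2, heart pup 2 or heart pup 3 in pups (adjusted p 0.055 to 0.0737), and 1378543_at in 7 of the 10 fits without 1 sample at each age (adjusted p 0.0505 to 0.242).

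Tissue differences in pups and adults rest on separate samples, although on a shared estimate of the spread. Of the members, 24 probe sets were called at both ages, each in the same direction, and none was called in opposite directions. Thus 68.6% of the pup calls were also called in adults, compared with 52.8% over all probe sets, and 88.9% of the adult calls were also called in pups, compared with 65.3%. Of the 35 pup calls 33 had the same sign in adults (94.3%, compared with 92.7% over all). Across the 103 probe sets, which share libraries and often a gene, the correlation of the differences at the 2 ages was 0.837, and 0.722 across all probe sets. Calls that held in every fit without 1 sample were counted for the members only, so that no share of all probe sets stands beside them. In 8 probe sets the call held at both ages whichever of the 10 samples was left out: 1393029_at of Celf1, Celf4, 1383736_at and 1383768_at of Elavl2, Elavl4, 1383257_at of Rbfox1, 1376460_at of Rbfox3 and 1374056_at of Rbm24.

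**Figure D3:**
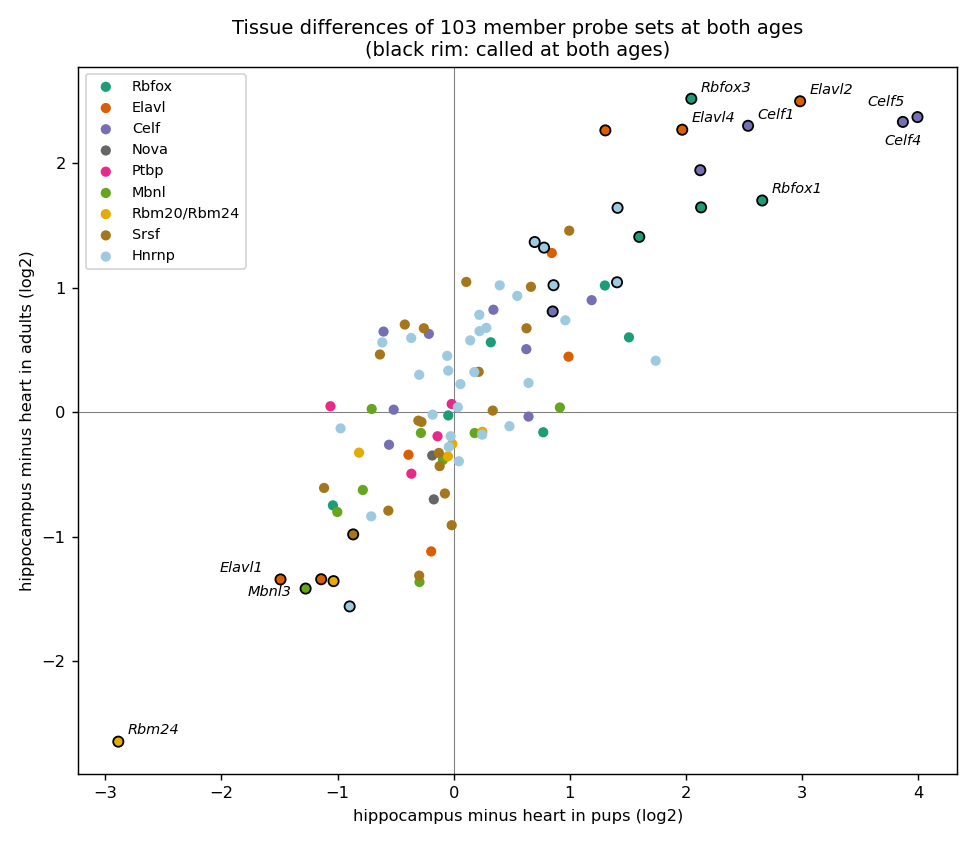
Difference hippocampus minus heart (log2) in pups, on the horizontal axis, and in adults, on the vertical axis, for 103 member probe sets coloured by family; a black rim marks the 24 called at both ages. Celf5, Celf4, Elavl2 (1383736_at) and Rbfox3 (1376460_at) lie at the upper right and Rbm24 (1374056_at) alone at the lower left.

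The second question was whether the regulators differ between pups and adults. By limma, 0 of the 103 probe sets differed with age in hippocampus and 0 in heart, beside 0.821% and 3.27% of all probe sets. At an unadjusted p under 0.05 there were 18 in hippocampus and 22 in heart, beside 18.2% and 20.7% of all. The ages did not overlap for 41 members in hippocampus and 37 in heart, beside 41.2% and 36.5% of all. Median differences adult minus pup were -0.08 in hippocampus and -0.15 in heart, compared with 0.02 and 0.01 over all probe sets, and the members ranged from -1.32 to 1.62 and from -1.30 to 1.46. In the interaction, which sets the age difference of hippocampus against that of heart, 0 were called (12 at an unadjusted p under 0.05), beside 0.0773% and 11.6% of all. With all 14 arrays kept and the sample as a random block, 2 were called in hippocampus (1.94%, beside 3.61% of all probe sets in that fit) and 7 in heart (6.80%, beside 7.16%), with 0 in the interaction.

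The age differences nearest the threshold were in heart. Hnrnpm, which represses exons in muscle and other tissues, stood at 12.55, 12.63 and 12.62 in pup heart and 10.91 and 11.78 in adult heart, a difference of -1.25 (95% interval -1.91 to -0.60, adjusted p 0.0517), and of -0.86 in hippocampus (adjusted p 0.175). Srsf2, a constitutive splicing factor, stood at 11.85, 11.85 and 11.75 in pup heart and 9.97 and 11.07 in adult heart, a difference of -1.30 (adjusted p 0.0795). Adult heart lay below pup heart without overlap for both, and adult heart 1 was the lower sample in each. In hippocampus, Rbfox1 by 1385235_at stood at 12.82, 12.55 and 13.67 in pups and 11.64 and 11.75 in adults, a difference of -1.32 (adjusted p 0.0887), and Srsf7, an SR protein, stood at 10.73 to 10.90 in pups and 12.28 and 11.41 in adults, a difference of 1.04 (adjusted p 0.317). Mbnl1 by 1382463_at differed by 1.62 in hippocampus and 1.46 in heart and was not called, and its pup levels of 4.60 to 6.67 lay under the 10th percentile, so that the size of the difference is not known. Ptbp2 differed by 0.63 in hippocampus (95% interval -0.04 to 1.29) and 0.68 in heart (95% interval 0.02 to 1.35, adjusted p 0.232). In the interaction the largest differences by the brightest probe set were those of Celf5 (-1.62, adjusted p 0.369), Celf4 (-1.53, adjusted p 0.269) and Hnrnpf (1.18, adjusted p 0.355). Markers of cycling cells had mean levels of 9.96 to 10.33 in pup heart and 9.87 and 10.04 in adult heart, and of 9.55 to 9.71 and 9.42 to 9.50 in hippocampus; markers of fibroblasts stood at 13.11 to 13.90 in pup heart and 11.98 and 12.37 in adult heart, and at 10.76 to 11.38 in pup hippocampus and 9.75 and 9.88 in adult hippocampus. Oligodendrocyte markers stood at 14.01 to 14.53 in pup hippocampus and 12.97 and 13.37 in adult hippocampus. Their part in the age differences was not tested.

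**Figure D4:**
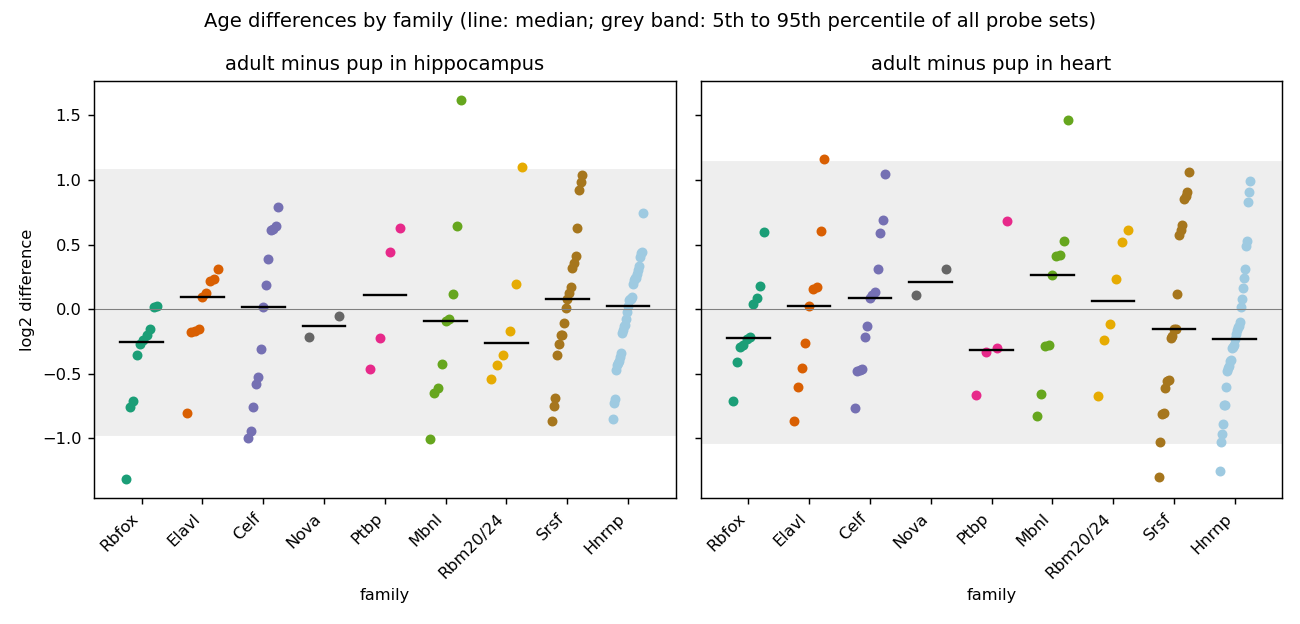
Difference adult minus pup (log2, vertical axis) of each member probe set by family, in hippocampus and in heart, with the family median as a line and the 5th to 95th percentile of all probe sets as a grey band. Most points lie inside the band, and Mbnl1 (1382463_at), at 1.62 and 1.46, was not called and rests on pup levels of 4.60 to 6.67, under the 10th percentile.

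Other genes of RNA processing were read from lists, each by its brightest probe set alone. Of 62 other splicing factors and RNA-binding proteins measured, 7 were higher in pup hippocampus and 5 in pup heart, and 8 and 4 in adults. These are 19.4% of the list at each age, beside 25.4% and 20.1% of all genes. Matr3, a nuclear matrix protein that binds RNA, was higher in hippocampus (2.87 in pups and 2.46 in adults), as was Ddx5, an RNA helicase (2.07 and 1.80). Rbm38, Rbpms2, Msi2 and Fxr1 were higher in heart at both ages, with -2.85, -1.73, -1.81 and -1.43 in pups. With age, in heart 3 were lower in adults, among them Snrpb, a core spliceosome protein (-1.85), and 1 was higher, U2af1 (0.93). Together they are 6.45% of the list, beside 3.33% of all genes. In hippocampus 0 of the list were called with age, beside 0.788% of all genes. Of 9 kinases that phosphorylate SR proteins, 2 were higher in pup hippocampus, Clk3 (3.44) and Clk4 (1.35), and Dyrk1a was lower (-0.99); in adults Clk4, Clk1 and Dyrk1a were higher (1.58, 1.18 and 0.97). At each age 33.3% of the kinases were called, beside 25.4% and 20.1% of all genes. Clk3 was not called in adults. Dyrk1a was thus called in opposite directions at the 2 ages by its brightest probe set, and its interaction of 1.96 missed the threshold (adjusted p 0.0977). Whether the calls of these lists held without 1 sample is not given here.

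Of 18 measured transcripts that members are known to splice or bind, 10 differed in pups, 4 higher in hippocampus and 6 in heart, and 8 in adults, 3 and 5, which is 55.6% and 44.4% beside 25.4% and 20.1% of all genes. This list was picked by hand and holds many genes of heart muscle and of neurons. Ryr2 and Tnnt2 in it are cardiomyocyte markers here as well. A share above that of all genes was thus built into the list and says nothing of splicing. Titin (Ttn), spliced by Rbm20, was higher in heart, with differences of -5.24 in pups and -4.71 in adults, as was Ldb3, a Z-disc protein, with -5.05 and -4.68. Gap43, a growth cone transcript bound by Elavl4, was higher in hippocampus by 3.45 and 1.90. The arrays give the total of each transcript and no exon use.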

How the data were processed

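Rat hippocampus and heart RNA was hybridised to 14 Affymetrix arrays, which were grouped by the tissue and age in the sample titles. The source names number each adult array as its own biological replicate, and the titles, which call them technical replicates, were followed. The authors summarised probe sets with RMA 2.0 (named in the submitters' processing notes) at the upper decile of their probes, and the deposited values are on a log2 scale, the base being read from the array maxima. The centring and range scaling that the methods describe were not seen in them.

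After 57 control probe sets were left out of 31099, technical arrays were averaged to give 10 samples. All 4 groups entered 1 linear model (R 4.3.3, limma 3.58.1, moderated by eBayes) with 6 residual and 3.55 prior degrees of freedom and Benjamini-Hochberg adjustment over 31042 probe sets, called at 0.05. The fit was tested on simulated data. The platform table gave 1 symbol to 20826 probe sets, several to 436 and none to 9780; 4 probe sets that share a family symbol with another gene were left out. All 103 member gene identifiers were found in the GRCr8 gene table with the same symbol. Each gene is represented by the probe set brightest on average, and for members the others are given where the call or sign differed. Genes of the families with tissue-restricted members were all named, and of Srsf and Hnrnp those called or, with none called, the largest difference, with up to 4 called genes per list. Srsf1 and Srsf7, which were not called between the tissues, were named there as well. Promoter windows came from RefSeq; figures and tables were made in Python 3.11.15 with pandas 2.3.3. Members and lists were chosen with earlier results of these data known. Alternatives were other normalisations, arrays, probe set filters, fits and thresholds, a replicate block, and leaving out each sample. The number of arrays limits the precision.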

Additional observations from a re-analysis of the deposited data

How the results depend on the processing

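No called member difference (62 in all) reversed under any alternative, and 29 kept their call in all fits that left out 1 sample, 20 in pups and 9 in adults. Calls kept in these fits were not counted over all probe sets. A difference could not reverse at another threshold, with brighter probe sets only, or in fits that changed the estimate of the spread alone. Nor could it on leaving out a sample of the other age. In pups, the 35 probe sets called became 21 with brighter probe sets only (of 57 tested, 36.8% beside 23.6% of all), 19 with the methods' t-test (18.4% beside 13.6%), 19 at an adjusted p of 0.01 (18.4% beside 12.8%) and 8 at 0.001 (7.77% beside 5.20%). In adults, the 27 called became 41 with all 14 arrays and the sample as a random block (39.8% beside 29.6%), 13 with brighter probe sets only (22.8% beside 18.1%), 0 with the methods' t-test, which called 0.00966% of all probe sets there, 13 at 0.01 (12.6% beside 9.27%) and 1 at 0.001 (0.971% beside 2.61%). Leaving out 1 sample gave 21 to 34 in pups and 9 to 28 in adults, the lowest without hippocampus adult 2 (8.74% beside 9.26%), and 0 in the interaction throughout. Counts under quantile normalisation, median centring, range scaling, the first technical array, the groups of the contrast alone and eBayes with trend and robust settings stayed within 1.5 times, at 27 to 34 in pups and 24 to 25 in adults. They were 26.2% to 33.0% of the members in pups, beside 19.9% to 24.5% of all probe sets. In adults they were 23.3% to 24.3%, beside 18.1% to 21.7%. By the mean of a gene's probe sets, 14 genes (29.2%) were called at each age, compared with 13 in pups and 10 in adults by the brightest. In that fit 27.1% of all genes were called in pups and 21.2% in adults.

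With age, 0 calls in hippocampus became 2 with all 14 arrays and the sample as a random block (Mbnl1 by 1.62 and Rbfox1 by -1.32). In heart 0 became 7 in that fit (Srsf11, Hnrnpa3, Hnrnpm, Srsf2 and Srsf9 lower in adults, Mbnl1 and Hnrnpa2b1 higher), and 1 with the first technical array only (Hnrnpa2b1). It became 0 to 1 on leaving out 1 sample, Elavl1 by 1393188_at without heart adult 1, where heart adult 2 stood at 11.69 and heart adult 1 at 8.13. By the mean of a gene's probe sets 1 gene was called in heart, Hnrnpm, which has a single probe set (adjusted p 0.0461). The cause of these shifts was not tested.

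Whether the replicate numbers pair the samples was not settled. Deviations from the group mean of same-numbered pup hippocampus and heart samples correlated at 0.066, -0.022 and -0.214. Those of differently numbered pup samples correlated at -0.18 to 0.196. Same-numbered adult tissues correlated at 0.283 and differently numbered ones at -0.283. With 2 samples per adult group these values mirror each other, so that they cannot show a pairing. With the replicate block 30 member probe sets were called in pups (29.1% beside 21.0% of all) and 21 in adults (20.4% beside 16.5%).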

Other observations

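The genes whose levels followed those of a member most closely over the 10 samples were found by Pearson's r across all named genes, as a description over samples that share tissue and age. For Rbfox3 they were Gprc5b (0.980), Slc17a7, the vesicular glutamate transporter (0.979), and Tubb3, the neuronal tubulin (0.978). For Elavl4 they were Spast (0.985), Gad1, which makes GABA (0.983), and Tenm4 (0.983), and for Celf4 Pitpnm1 (0.995), Myt1l (0.989) and Mllt11 (0.987). Ptbp2, which did not differ between the tissues past the threshold, was followed by Dync2li1 (0.947), Prcc (0.944) and Ubap2 (0.934). The bright probe sets of Rbm24 and Rbm20 had lower likenesses, led by Glul (0.950) and Caap1 (0.906). For the probe sets of these genes that differed between the tissues, chosen after their values were seen, the leading genes were Ndufa6, a subunit of respiratory complex I (0.992 with 1374056_at of Rbm24), and Ifi44l (0.967 with 1378337_at of Rbm20).

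Technical arrays of the same adult sample differed by a median of 0.26 to 0.39 over the member probe sets, about as much as samples of a group did (0.26 to 0.37). The largest such difference was 4.22, for 1393946_at of Srsf10 in heart adult 1.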
